A study of Mus musculus with 8 samples.

Results

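CREM, the cAMP-responsive element modulator, and 9 genes of related CREB factors and coactivators were examined in spermatids and spermatocytes of mice labelled Sam68 -/-. The 10 members were chosen by gene symbol, and each had 1 row among the 56324 gene models of the deposited expression table. They are the transcription factor genes Crem, Creb1, Atf1, Creb3, Creb3l4 and Crebl2, the LIM-only coactivator genes Fhl5 and Fhl4, and the CREB-regulated transcription coactivator genes Crtc1 and Crtc2. The spermatid group (4 libraries) and the spermatocyte group (4 libraries) both came from C57BL/6 males of 12 weeks that carried the Sam68 -/- genotype, so the loss of the RNA-binding protein Sam68 was shared by both groups and was not compared. Cells were separated by sedimentation under gravity, and polyadenylated RNA was sequenced with a stranded kit. Whether the libraries stand for separate animals or for pools is not stated, so the p-values cover no more than the spread among these libraries, which may be technical.

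CREM, CREB1 and ATF1 are closely related basic leucine zipper factors that bind cAMP response elements. In most tissues they are switched on by phosphorylation and then recruit the acetyltransferases CREBBP and EP300, while CRTC proteins add a further input. In the testis Crem changes from repressor to activator isoforms during meiosis, and activator CREM is partnered in spermatids by the LIM-only protein ACT, which Fhl5 encodes and which works without that phosphorylation. Male mice that lack Crem are sterile, with an arrest early in spermatid development. CREB3 and CREB3L4 are a different branch of the family, anchored in membranes of the endoplasmic reticulum or Golgi and released by cleavage.

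The libraries held between 60673309 and 93975960 reads for spermatids and between 49000266 and 78060212 for spermatocytes, and every member had at least 267 reads in each library. The identity of the fractions was checked by marker lists. All 7 spermatid markers rose, with summed levels of 401293 to 480538 normalized counts in spermatid libraries and 14558 to 29228 in spermatocyte libraries. Of 8 spermatocyte markers 4 fell and 0 rose, with sums of 40474 to 50583 in spermatids and 204785 to 223939 in spermatocytes. Piwil1 carried most of that sum, and the other 7 markers summed to 36900.0 to 46655 in spermatids and 57387 to 87480 in spermatocytes, with 4 of them overlapping between the groups. In each fraction the markers of its own label had the highest sum of the lists. The meiotic markers disagreed about single spermatocyte libraries. Sycp1, Sycp3 and Hormad1, genes of the meiotic chromosome axis, were low in spermatocyte library 4, where Sycp1 had 1653 normalized counts against 12680 to 26690 in the other spermatocyte libraries and 8626 to 14192 in spermatids. Piwil1, Mlh3, Ccna1 and Pou5f2 were highest in that library, and Ccna1 (8034) and Pou5f2 (5431) were low in library 3. All 8 Sertoli cell markers fell, with sums of 799 to 1548 in spermatids and 6767 to 29615 in spermatocytes, highest in spermatocyte library 3. The 6 matched Leydig cell markers also fell, whereas 5 of 6 macrophage and blood cell markers rose, with sums of 1800.0 to 4197 in spermatids and 124 to 142 in spermatocytes. Markers of other cells thus differed between the fractions in both directions. Of 6 spermatogonia markers 4 rose and 0 fell, with sums of 2028 to 4207 in spermatids and 597 to 1231 in spermatocytes. In such fractions fewer cells of a type and less RNA per cell cannot be told apart.

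Spermatids held far more RNA of Fhl5, Creb3l4 and Crem than spermatocytes, and less of Crtc2, while the broadly expressed factors Creb1 and Atf1 were not called. A gene was called when its Benjamini-Hochberg adjusted p in limma was below 0.05 over all tested models and its absolute log2 fold change, on the log2(normalized count + 1) scale, was at least 1. All 10 members passed the filter on low values. Of these, 3 were called higher and 1 lower in spermatids, against 32.5% called higher, 29.8% called lower and 62.3% called in either direction among all 28735 tested models. The adjusted p alone was passed by 8 of 10 members, against 72.3% of all models, so the count of members is near the background. The median log2 fold change was 0.15 over the members and -0.01 over all tested models. Over the 17944 tested models matched to a GENCODE gene, as all 10 members were, it was 0.25. Of those models 6363 were called higher and 3788 lower. Spermatids and spermatocytes did not overlap in 4 members with higher and 4 with lower values in spermatids, against 34.2% of all models with higher and 32.2% with lower values there (66.4% together).

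**Figure D1:**
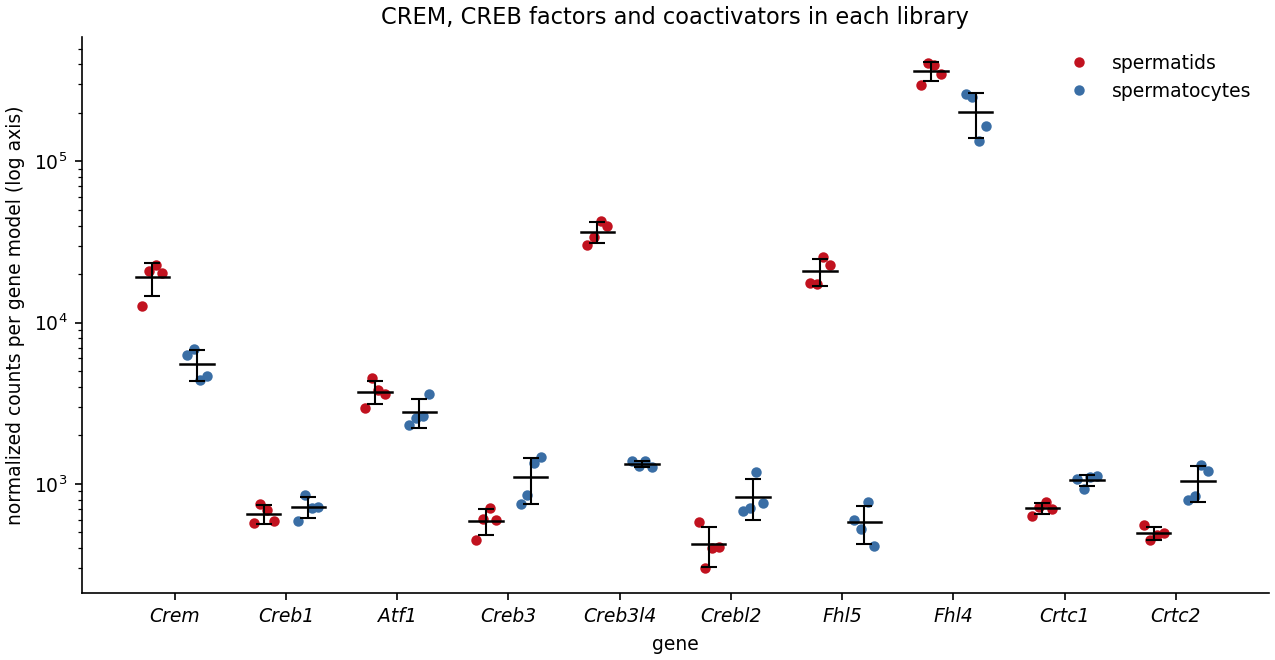
Normalized counts (log axis) of the 10 genes in each library, spermatids in red at the left of each gene and spermatocytes in blue at the right, with the mean and SD of the 4 libraries as black lines. Fhl5, Creb3l4 and Crem were separated by the widest gaps, Creb1 and Atf1 overlapped, and Fhl4 was the most abundant gene in both cell types.

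Crem, on chromosome 18 from 3266354 to 3337591 of mm10 on the minus strand, had 12624, 20886, 22665 and 20384 normalized counts in spermatid libraries 1 to 4. In spermatocyte libraries 1 to 4 it had 6283, 6873, 4428 and 4681. Every spermatid library lay above every spermatocyte library, with library 1 the lowest of the spermatids and libraries 3 and 4 the lowest of the spermatocytes. The mean was 19139.9 ± 4453 in spermatids and 5566 ± 1197 in spermatocytes (SD, n = 4 each), a ratio of 3.44 (log2 fold change 1.77 ± 0.22 SE, limma adjusted p = 1.6e-05). Crem was called under each of the 21 alternatives tried, with log2 fold changes between 1.22 and 1.96. GENCODE annotates 39 transcripts of Crem. They include activators, repressors and the short early repressor ICER, which starts from an internal promoter, and the deposited value is a sum over the gene model, so isoforms were not told apart. A model named Gm6225 overlaps the start of the Crem gene on the other strand and averaged 1292 in spermatids and 385 in spermatocytes, and whether the counting used strand is not given in the sources used here.

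Creb1 and Atf1 encode the factors most closely related to CREM. Creb1, on chromosome 1 from 64532804 to 64604547, had 570.5, 752, 694 and 589 normalized counts in spermatids and 589, 851, 708 and 723 in spermatocytes. The groups overlapped, with a log2 fold change of -0.14 ± 0.20 SE (limma adjusted p = 0.55). With libraries scaled to equal total reads it became -0.57 (limma adjusted p = 0.019). With quantile normalization it became -0.48 (limma adjusted p = 0.044), and both stayed short of the fold threshold. Atf1, on chromosome 15 from 100227817 to 100261248, had 2977, 4512, 3834 and 3635 in spermatids and 2331, 2556, 2650.2 and 3603 in spermatocytes. Spermatocyte library 4 reached into the spermatid range, and the difference did not pass the test (log2 fold change 0.43 ± 0.19 SE, limma adjusted p = 0.063). With equal total reads the Atf1 value was -0.0072. An unnamed model inside Atf1 averaged 1985 in spermatids and 4466 in spermatocytes, so reads of this region are uncertain.

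The balance within each library was compared for 5 pairs of members. The log2 ratio of Crem to Creb1 was 4.85 ± 0.29 in spermatids and 2.94 ± 0.35 in spermatocytes (SD, n = 4 each). The log2 ratio of Crem to Atf1 was 2.34 ± 0.23 in spermatids and 0.99 ± 0.52 in spermatocytes. In both pairs all spermatid libraries lay above all spermatocyte libraries (exact two-sided permutation test, p = 0.0286 and adjusted p = 0.0357 over the 5 pairs), where 0.0286 is the smallest p that 4 against 4 libraries allow. Per kilobase of exon sequence, Crem made up 71.5% ± 3.22 of the summed level of Crem, Atf1 and Creb1 in spermatids and 49.4% ± 8.77 in spermatocytes (SD, n = 4 each). Atf1 made up 27.4% ± 3.06 in spermatids and 47.8% ± 8.72 in spermatocytes, and Creb1 1.07% ± 0.18 in spermatids and 2.74% ± 0.37 in spermatocytes. These shares of the sum depend on exon lengths that join all annotated transcripts of a gene (5895 bases for Crem, 3060 for Atf1 and 13742 for Creb1). Crem had 57.0%, 56.5%, 45.0% and 39.2% of this sum in spermatocyte libraries 1 to 4, so libraries 3 and 4 were lower there too. Without them the difference in the log2 ratio of Crem to Atf1 was 0.91, against 1.34 with all libraries.

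**Figure D2:**
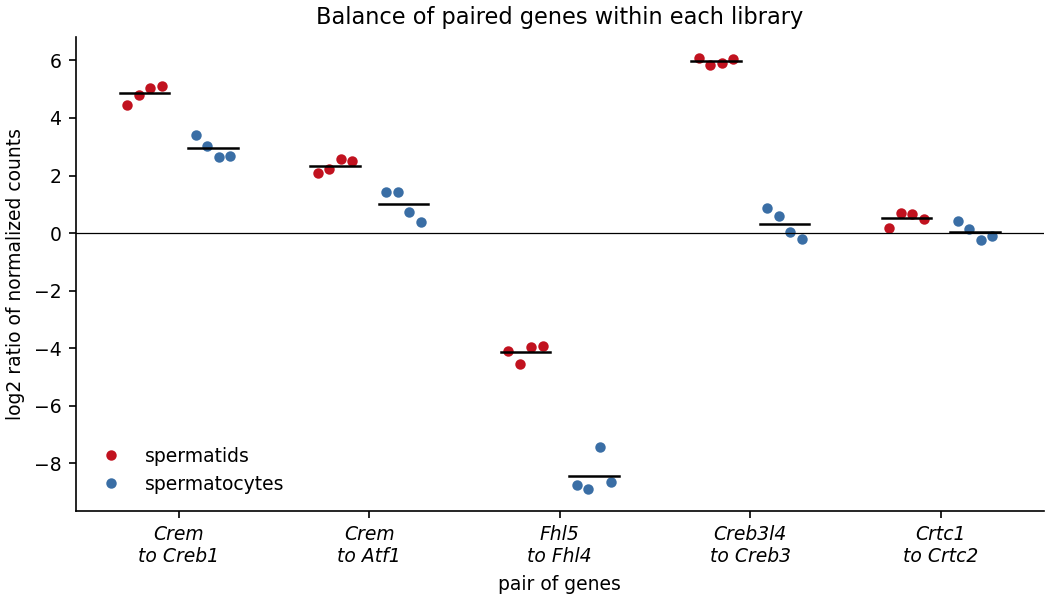
Log2 ratio of normalized counts of 5 gene pairs within each library, spermatids in red left of spermatocytes in blue, with the group mean as a black line. The groups did not overlap for Crem to Creb1, Crem to Atf1, Fhl5 to Fhl4 and Creb3l4 to Creb3, and did for Crtc1 to Crtc2.

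Creb3l4 rose more than any member but Fhl5. Its product, also known as ATCE1 or Tisp40, is a membrane-bound factor that is abundant in the testis. The gene, on chromosome 3 from 90237500 to 90243514 on the minus strand, had 30232, 34208, 42528 and 39783 normalized counts in spermatids. The spermatocyte libraries held 1390.2, 1296, 1382 and 1266. The spermatocyte values were the tightest of all members, with an SD of 4.64% of their mean. Its mean was 36688 ± 5523 in spermatids and 1334 ± 61.9 in spermatocytes (SD, n = 4 each), 27.5 times as high (log2 fold change 4.77 ± 0.16 SE, limma adjusted p = 9.5e-10).

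Creb3, its relative on chromosome 4 from 43562623 to 43567060, encodes the factor known as Luman and had the opposite sign of change. It had 449, 602, 713 and 598 normalized counts in spermatids and 753, 856, 1339.6 and 1468 in spermatocytes. The groups did not overlap, but the highest spermatid and the lowest spermatocyte library were close. The log2 fold change of -0.86 ± 0.26 SE (limma adjusted p = 0.0089) stayed short of the fold threshold. It was called without spermatocyte library 1 (-1.03), with equal total reads (-1.30) and with quantile normalization (-1.22). With the correction for GC content it was -0.50 (limma adjusted p = 0.061), and without spermatocyte libraries 3 and 4 it was -0.46 (limma adjusted p = 0.081). The log2 ratio of Creb3l4 to Creb3 was 5.96 ± 0.12 in spermatids and 0.33 ± 0.50 in spermatocytes (SD, n = 4 each; exact two-sided permutation test, adjusted p = 0.0357), the largest shift among the 5 pairs. The last bases of the Creb3 model overlap Gba2 on the opposite strand, which averaged 6486 in spermatids and 6382 in spermatocytes.

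Fhl5 rose more than any other member. It had 17631, 17391, 25362 and 22828 normalized counts in spermatids and 599, 525, 770.5 and 412 in spermatocytes. No spermatid library came near the spermatocyte range. The gene lies on chromosome 4 from 25199909 to 25242876 on the minus strand. Its mean was 20803 ± 3940.4 in spermatids and 577 ± 150.3 in spermatocytes (SD, n = 4 each), a ratio of 36.1 (log2 fold change 5.19 ± 0.22 SE, limma adjusted p = 1.7e-09).

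Fhl4, a LIM-only relative whose RNA is known from the mouse testis, was among the most abundant RNAs of both fractions. On chromosome 10 from 85096287 to 85102496 on the minus strand, it had 298886, 410345, 394513 and 350192 normalized counts in spermatids. In spermatocytes it had 260234, 251087, 134098 and 165063. All spermatid libraries were higher, yet the gap to spermatocyte libraries 1 and 2 was small. The log2 fold change of 0.89 ± 0.23 SE passed the adjusted p (limma, 0.0042) and not the fold threshold. It passed both without spermatocyte library 1 (1.03) or 2 (1.01), but it was smaller with equal total reads (0.45), with the correction for GC content (0.62), without spermatocyte library 3 (0.71) and without libraries 3 and 4 (0.50). The log2 ratio of Fhl5 to Fhl4 was -4.14 ± 0.29 in spermatids and -8.44 ± 0.67 in spermatocytes (SD, n = 4 each; exact two-sided permutation test, adjusted p = 0.0357).

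Levels of different genes were compared as normalized counts per kilobase of GENCODE exon sequence. Fhl4 ranked 12 of 17944 tested models with an exon length in spermatids and 26 in spermatocytes. Its level per kilobase was 4.68 times that of the next member, Creb3l4, in spermatids and 60.4 times that of the next member, Crem, in spermatocytes. The order in spermatids ran from Fhl4 (102275 per kilobase) through Creb3l4 (21851), Fhl5 (17765), Crem (3247), Atf1 (1222), Creb3 (249), Crtc2 (121), Crebl2 (68.4) and Crtc1 (63.1) to Creb1 (47.4). Over the members the SDs were 8.37% to 27.5% of the mean in spermatids and 4.64% to 31.9% in spermatocytes (n = 4 each). Neighbours in this order overlapped over the 4 libraries only for Creb3l4 with Fhl5 and for Crebl2 with Crtc1. In spermatocytes the order ran from Fhl4 (57012 per kilobase) through Crem (944), Atf1 (910.2), Creb3l4 (794), Fhl5 (492), Creb3 (465), Crtc2 (254), Crebl2 (135) and Crtc1 (94.3) to Creb1 (52.2). There Crem overlapped Atf1, Atf1 overlapped Creb3l4, Fhl5 overlapped Creb3, and Creb3 overlapped Crtc2. Among tested models Fhl5 stood at percentile 98.4 per kilobase in spermatids and 74.1 in spermatocytes, and Creb3l4 at 98.8 in spermatids and 80.8 in spermatocytes. Exon lengths come from the annotation (1171 bases for Fhl5), so these levels depend on the transcript ends annotated there.

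Promoters of Fhl5 and Creb3l4, the members that rose most, are shown beside those of Fhl4 and Atf1 because they differ in base composition, and because cAMP response elements are the sites to which CREB factors bind. RefSeq (GRCm38.p6) windows of 300 bases, from 250 before to 50 after a transcript start, were at hand for 7 members, with 10 windows in all. No window was at hand for Crem, Crebl2 and Crtc2, so their promoters were not searched. The full element TGACGTCA was searched on both strands, as was its core TGACG, which reads CGTCA on the other strand and is contained in the full element. Neither strand of any of the 10 windows held the full element, which 1.79% of 32817 promoter windows hold. The core was in 3 of the 10 windows, against 20.8% of all windows, and is in capitals below. These are matches of letters and not measured binding.
Fhl5, chr4:25242803-25243102, minus strand: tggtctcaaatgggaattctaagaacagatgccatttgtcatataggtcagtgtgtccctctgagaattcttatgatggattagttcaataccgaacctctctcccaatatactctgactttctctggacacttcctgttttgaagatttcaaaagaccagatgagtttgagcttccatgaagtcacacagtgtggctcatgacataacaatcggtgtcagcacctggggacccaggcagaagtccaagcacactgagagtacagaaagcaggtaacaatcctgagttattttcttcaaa
Creb3l4, end of the deposited model, chr3:90243463-90243762, minus strand: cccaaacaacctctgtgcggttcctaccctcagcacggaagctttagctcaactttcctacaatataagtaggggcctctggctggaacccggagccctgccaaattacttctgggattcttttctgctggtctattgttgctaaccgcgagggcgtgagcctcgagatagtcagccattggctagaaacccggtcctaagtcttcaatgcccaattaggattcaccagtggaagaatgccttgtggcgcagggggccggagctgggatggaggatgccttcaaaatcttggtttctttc
Creb3l4, innermost start, chr3:90242501-90242800, minus strand: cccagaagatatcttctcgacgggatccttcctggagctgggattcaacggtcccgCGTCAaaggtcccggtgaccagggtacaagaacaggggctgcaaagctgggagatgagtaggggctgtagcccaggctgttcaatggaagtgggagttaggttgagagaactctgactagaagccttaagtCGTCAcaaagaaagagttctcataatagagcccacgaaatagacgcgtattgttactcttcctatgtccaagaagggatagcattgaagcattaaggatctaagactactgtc
Fhl4, chr10:85102446-85102745, minus strand: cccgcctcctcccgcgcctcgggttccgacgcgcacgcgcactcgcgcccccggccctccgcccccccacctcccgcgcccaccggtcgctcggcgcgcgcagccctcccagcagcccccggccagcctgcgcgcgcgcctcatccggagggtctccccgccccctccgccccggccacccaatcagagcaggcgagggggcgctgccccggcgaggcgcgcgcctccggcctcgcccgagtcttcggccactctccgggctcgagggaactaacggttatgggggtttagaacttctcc
Atf1, chr15:100227609-100227908, plus strand: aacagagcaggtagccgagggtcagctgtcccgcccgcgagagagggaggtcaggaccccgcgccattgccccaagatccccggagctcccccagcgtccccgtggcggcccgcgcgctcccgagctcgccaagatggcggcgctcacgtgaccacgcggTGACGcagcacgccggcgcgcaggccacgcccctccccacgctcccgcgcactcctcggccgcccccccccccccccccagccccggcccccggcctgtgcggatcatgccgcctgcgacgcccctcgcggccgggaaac

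The Fhl5 window shown, at the end of the deposited gene model, was AT-rich, with 42.7% G and C and 2 CpG dinucleotides. That of a further RefSeq start inside the gene had 39.3% G and C and 3 CpG dinucleotides, and neither held a core. The Fhl4 window was the richest in G and C, with 77.7% G and C and 44 CpG dinucleotides, and also held none. Atf1 resembled Fhl4 in composition, with 77.3% G and C and 40 CpG dinucleotides, and carried 1 core that begins 90 bases before the start. Creb3l4 has 3 starts in RefSeq. The window at the end of the deposited gene model held no core, that of the innermost start held cores beginning 194 and 63 bases before it, and that of the middle start held 1 beginning 222 bases before it. The windows of Creb1, Creb3 and Crtc1 held none. The deposited table gives 1 value per gene model, so use of single starts was not measured.

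Crtc2 and Crtc1 encode coactivators that stay in the cytoplasm until they are dephosphorylated. Crtc2, on chromosome 3 from 90254277 to 90264125, had 557, 447, 483 and 498 normalized counts in spermatids and 791, 838, 1314 and 1209 in spermatocytes. No library overlapped, and spermatocyte libraries 3 and 4 were the highest. It fell to 496 ± 45.9 in spermatids, against 1038 ± 262 in spermatocytes (SD, n = 4 each, with a log2 fold change of -1.03 ± 0.22 SE and a limma adjusted p = 1.0e-03). This call was lost without spermatid library 2 (-0.98), without spermatocyte library 3 (-0.91), without spermatocyte library 4 (-0.95), without both of the last (-0.72) and after a correction for GC content (-0.63). Crtc2 lies 10762 bases from the Creb3l4 model, and the log2 fold changes of these genes had opposite signs.

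Crtc1, on chromosome 8 from 70382355 to 70439579, had 629.6, 723, 772 and 699.8 normalized counts in spermatids and 1069, 929, 1100.3 and 1119 in spermatocytes. The groups were tight and separate, with SDs of 8.37% of the mean in spermatids and 8.14% in spermatocytes. The log2 fold change was -0.58 ± 0.17 SE (limma adjusted p = 0.0098), short of the fold threshold except with equal total reads (-1.01), and it was -0.19 after the correction for GC content. The log2 ratio of Crtc1 to Crtc2 was 0.51 ± 0.24 in spermatids and 0.05 ± 0.30 in spermatocytes (SD, n = 4 each), and the difference did not pass (exact two-sided permutation test, p = 0.0571, adjusted p = 0.0571). The deposited coordinates of a model named Pik3r2, on the same strand, span the whole of Crtc1. That model averaged 2216 in spermatids and 4475 in spermatocytes, so reads of this region are uncertain.

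Crebl2, a small leucine zipper protein gene related to CREB, is on chromosome 6 from 134830197 to 134857883. It had 582, 303, 401 and 406 normalized counts in spermatids and 676, 712, 1183 and 757 in spermatocytes. Spermatocyte library 3 stood above the rest of its group, and the groups did not overlap. The log2 fold change was -0.98 ± 0.26 SE (limma adjusted p = 0.0045), just short of the fold threshold, and it was called under 6 of 21 alternatives, with values down to -1.41.

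The 4 members whose spermatid libraries all lay below their spermatocyte libraries were set beside the Sertoli cell markers. The 8 markers summed to 1548, 799, 1540.3 and 1296 normalized counts in spermatid libraries 1 to 4 and to 6767, 9925, 29615 and 12332 in spermatocyte libraries 1 to 4. Crtc2 and Crebl2 were highest in spermatocyte library 3, where the markers were highest, and Creb3 was highest in library 4. Crtc1 was also highest in library 4 and varied little among the spermatocyte libraries (929 to 1119). None of the defining markers was at 0 in either group. Without spermatocyte libraries 3 and 4 the log2 fold changes were -0.72 for Crtc2, -0.46 for Creb3, -0.75 for Crebl2 and -0.50 for Crtc1. None of these was called, and with all libraries only Crtc2 was. Without those libraries the limma adjusted p was 0.0058 for Crtc2, 0.081 for Creb3, 0.02 for Crebl2 and 0.031 for Crtc1. The part of Sertoli cell RNA in these differences was not tested.

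**Figure D3:**
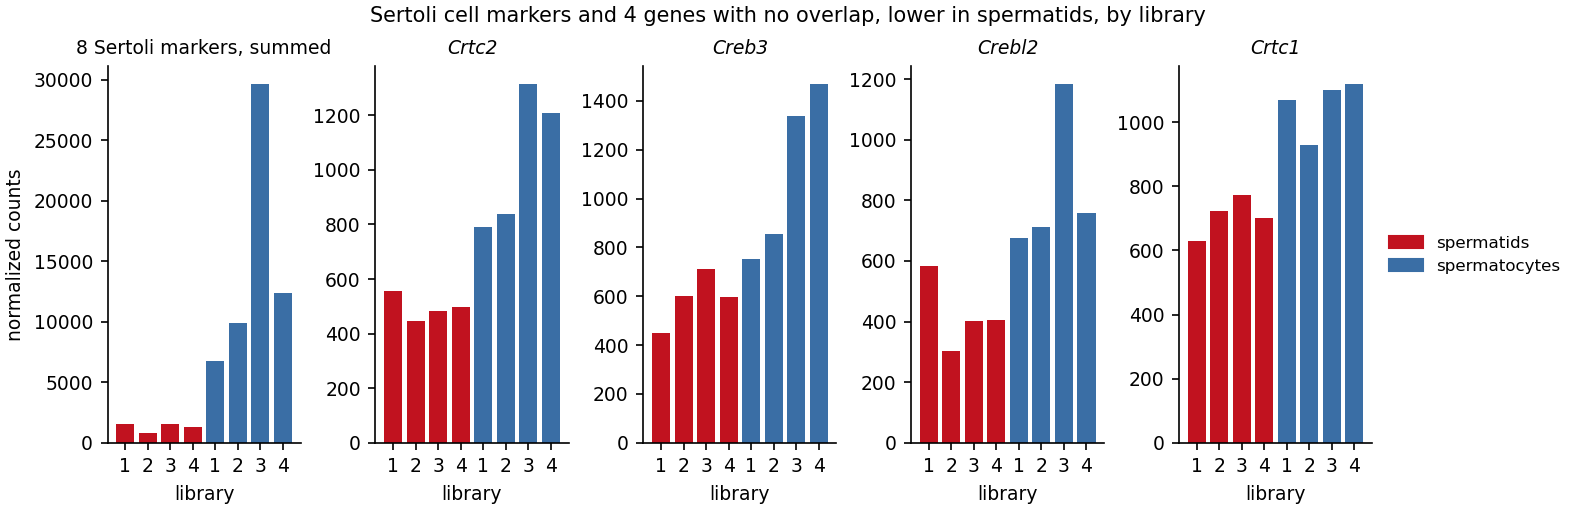
Normalized counts in each library, spermatids 1 to 4 in red at the left and spermatocytes 1 to 4 in blue at the right, of the summed Sertoli cell markers and of Crtc2, Creb3, Crebl2 and Crtc1 (bars from 0, a scale for each panel). The marker sum was 29615 in spermatocyte library 3 and at most 12332 in any other library.

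**Figure D4:**
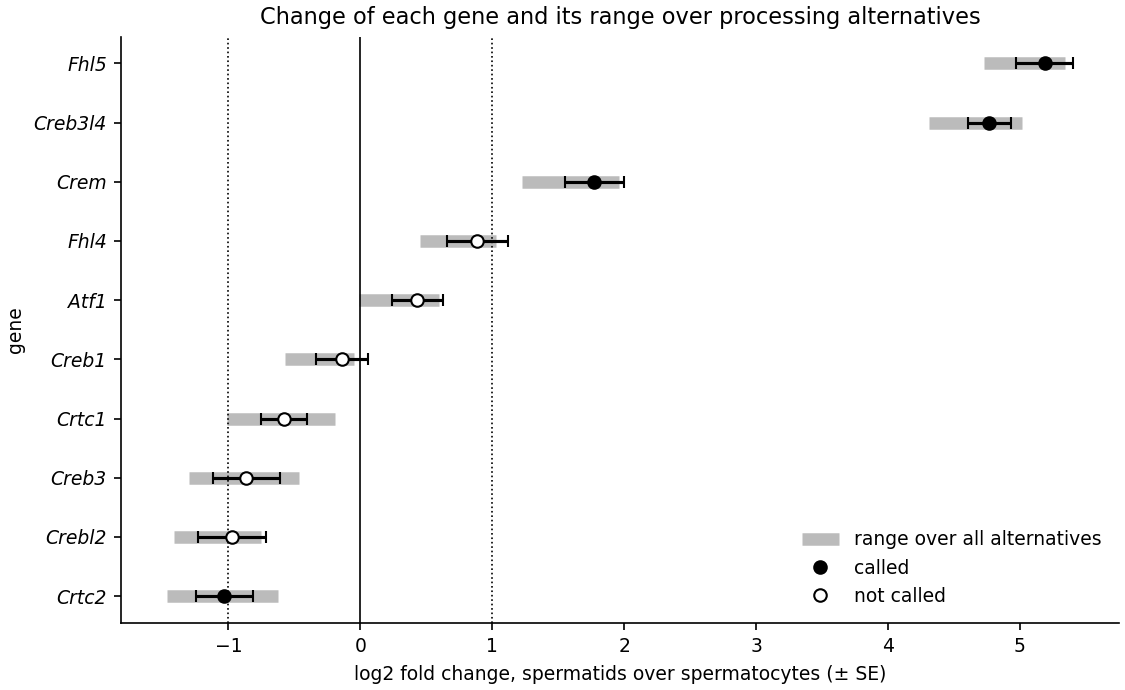
Log2 fold change of each gene, spermatids over spermatocytes, with its SE (filled when called, open when not) over a grey bar that spans all alternatives. Dotted lines mark the fold threshold of 1 in either direction. Fhl5, Creb3l4 and Crem lay beyond it under every alternative shown, and Crtc2 crossed it.

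Related genes outside the set were read as 6 lists. Counts below are to be read against the 32.5% of all models called higher and 29.8% called lower. Medians are to be read against -0.01 for all tested models, which became -0.44 with equal total reads and -0.36 with quantile normalization. Over the 17944 tested models matched to a GENCODE gene, 6363 were called higher and 3788 lower. Their median was 0.25, and 0.38 with the correction for GC content. Among 11 other CREB and ATF factors 4 rose and 3 fell, shares near those of all models, with a median log2 fold change of 0.62. Atf5 rose to 2251 ± 317 in spermatids, against 357 ± 70.1 in spermatocytes (SD, n = 4 each, with a log2 fold change of 2.67 ± 0.21 SE and a limma adjusted p = 2.6e-07). Creb3l3 (2.48) and the stress factor gene Atf3 (2.35) also rose. Atf3 had 872, 461, 368 and 595 normalized counts in spermatid libraries 1 to 4, in the same order as the summed macrophage and blood cell markers (4197, 2020, 1800.0 and 3053), whose part in its rise was not tested. Atf4, the main factor of the integrated stress response, fell to 1732 ± 361 in spermatids, against 6617 ± 1183 in spermatocytes (SD, n = 4 each, with a log2 fold change of -1.94 ± 0.20 SE and a limma adjusted p = 2.3e-06).

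Of 6 other coactivators and LIM-only proteins 4 rose and 2 fell, with a median of 1.18. Fhl2 rose by 2.88 on the log2 scale, with means of 251 ± 70.8 normalized counts in spermatids and 33.4 ± 11.2 in spermatocytes (SD, n = 4 each). Fhl1 fell by 2.56 and Crtc3 fell by 2.15. Both were highest in spermatocyte library 3, with 398 for Fhl1 and 1181 for Crtc3, beside the highest Sertoli marker sum. The acetyltransferase genes Crebbp (1.34) and Ep300 (1.02), named after their values were seen, rose with the deposited scaling. With equal total reads they were at 0.90 and 0.59 and were not called. Ep300 lay so close to the threshold that its call was also lost with quantile normalization (0.68), without spermatid library 3 or 4 (both 0.97) and without spermatocyte library 1 (0.94) or 2 (0.97).

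Among 12 kinases that act on CREB factors or CRTC proteins 7 rose and 1 fell, and the median was 1.79. Camk4, a calmodulin-dependent kinase that phosphorylates CREM and CREB, had 2299.9, 2625, 3564 and 3452 normalized counts in spermatids and 93.5, 83.4, 107 and 106 in spermatocytes. Its groups were far apart (log2 fold change 4.90 ± 0.22 SE, limma adjusted p = 2.3e-09). The deposited value is a sum over the Camk4 gene model, so transcripts with and without the kinase part were not told apart. Rps6ka1, which encodes a ribosomal S6 kinase, rose by 2.97. Mark2, a polarity kinase that can phosphorylate CRTC2, fell to 514 ± 59.1 in spermatids, against 8019 ± 1225 in spermatocytes (SD, n = 4 each, with a log2 fold change of -3.96 ± 0.18 SE and a limma adjusted p = 2.4e-09).

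Of 7 partners of CREM-driven transcription, mostly germ cell forms of general transcription factors, 3 rose and 1 fell, and the median was 0.74. Taf7l rose by 4.19 and Taf4b by 1.78. In spermatid libraries 1 to 4 Taf7l had 6717, 4171, 5097 and 5078 normalized counts, and Taf4b had 2556, 1218, 1333 and 1600. Both were highest in library 1 like the summed spermatogonia markers (4207, 2028, 2436 and 2381), and Taf7l followed their order throughout. The part of spermatogonia in either rise was not tested. In contrast, Taf4, listed in the table under its older name Taf4a, fell by 2.18. Of 10 genes described as CREM targets in spermatids 8 rose and 1 fell, and the median was 4.16. Ldhc was not called (log2 fold change 0.07), and its groups overlapped. The list was chosen for expression in spermatids, and Prm1, Prm2, Tnp1 and Tnp2 of it also served as spermatid markers. The count of 8 is thus not independent of the identity of the fraction. Acr (1.07) lost its call under 5 of 21 alternatives, among them equal total reads and quantile normalization, which left 7 called higher. Smcp, a mitochondrial capsule protein gene, had 137085 to 252324 normalized counts in spermatids and 5947 to 10644 in spermatocytes (log2 fold change 4.75 ± 0.24 SE, limma adjusted p = 5.7e-09). Odf1, of the outer dense fibres, rose by 4.58 and the transition protein gene Tnp1 by 4.28. Cyct, the testis cytochrome c gene, fell by 1.23.

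**Figure D5:**
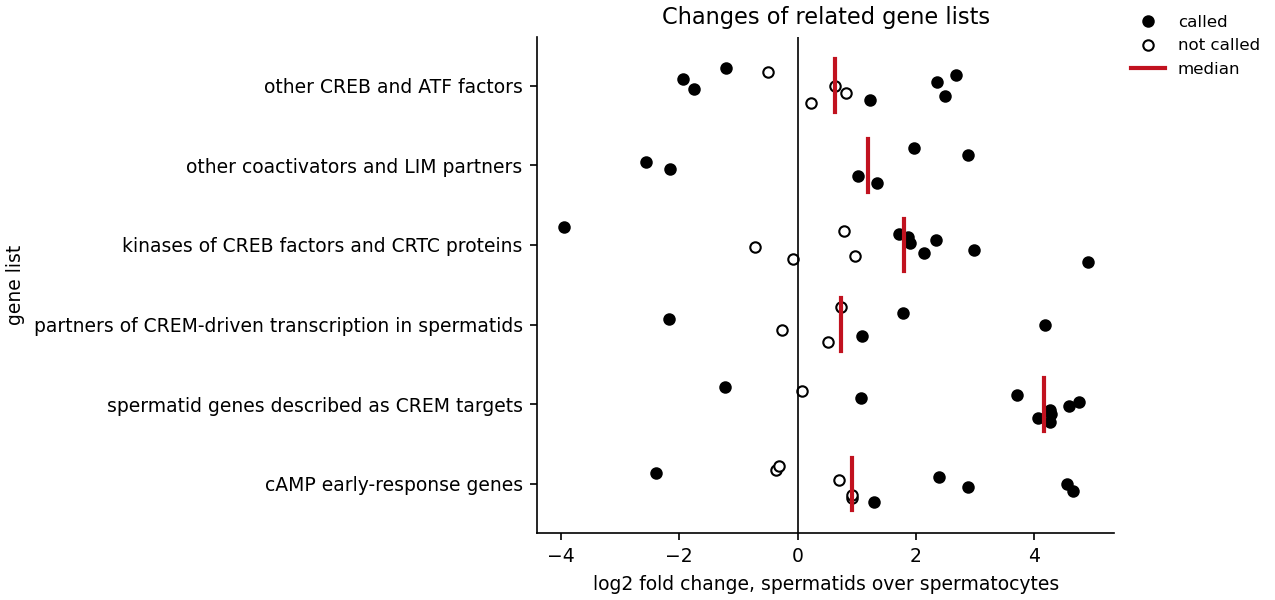
Log2 fold change, spermatids over spermatocytes, of each tested gene of 6 related lists (filled points called, open points not), with the median of each list as a red line. The described CREM targets had a median of 4.16, and each list had genes on both sides of 0.

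Genes with the pattern most like Crem and Fhl5 over the 8 libraries were found by the Euclidean distance of centred log2 values among 8204 abundant named models. For Crem they were Cep57 (distance 0.27), Nrd1 (0.34), Nme5 (0.36), Cab39l (0.39) and Cdkl3 (0.41). Cep57, a centrosomal protein gene, had 19389, 29546, 33955 and 33403 normalized counts in spermatids and 10227, 11933, 6307 and 7054 in spermatocytes. As with Crem, library 1 was the lowest of the spermatids and libraries 3 and 4 were the lowest of the spermatocytes. Such likeness follows from the choice by distance. For Fhl5 they were Kctd16 (0.26), AY702102 (0.30), Galntl5 (0.34), Dnajc5b (0.39) and Col22a1 (0.41). Galntl5, which encodes a testis glycosyltransferase-like protein, had 34789.9, 41218, 53256 and 52355 in spermatids and 1390.2, 1267, 1654 and 779.8 in spermatocytes.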

How the data were processed

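The authors deposited normalized counts per gene model (read counts divided by a size factor for each library, a signal with no depth of its own), aligned to mm10 with STAR 2.4.0 and scaled with DESeq, per the submitters' processing notes; the sources used here do not name the counting tool or its strand setting. In each of the 8 libraries 100.0% of the deposited values lay within 10.0% of a step from a whole multiple of 1 step, so whole reads could be recovered, and 3 reads equal 2.42 to 4.50 normalized counts. Another 8 columns of per-sample values were not used. Replicates within a cell type differed beyond counting noise (smallest chi-square per degree of freedom 12.2).

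A filter kept models that reached 10 normalized counts in 4 or more libraries. They were tested with limma 3.58.1 (trend and robust moderation, R 4.3.3) on log2(normalized count + 1), spermatids minus spermatocytes, with no covariate, and p-values were adjusted over all 28735 tested models. Ratios within libraries used exact permutation tests. Alternatives changed the pseudocount, filter, scaling, moderation or libraries, corrected for GC content, or ran edgeR 4.0.16 and DESeq2 1.42.0 on the recovered reads. Code was tested on simulated data. The members and lists were chosen with earlier results of these data known. Named genes are all members, in each list the 3 called genes with the largest change and the most changed one of the other direction, and the 5 models nearest in pattern to Crem and to Fhl5. Exon lengths came from GENCODE vM21 and promoters from RefSeq (GRCm38.p6). Protein sequences were not analysed here, nor were Creb5, Atf7, Kif17, Junb and Insl3, which had no row of their own symbol.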

Additional observations from a re-analysis of the deposited data

Results flagged for a closer look

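Of 30 groups of 4 libraries examined for a library that stands apart, 1 met the criterion, and chance gives about 1 in 20. Crebl2 had 1183 normalized counts in spermatocyte library 3, against 676, 712 and 757 in the other spermatocyte libraries, so the gap below the highest value was 0.841 of the whole range. The summed Sertoli cell markers were also highest in that library, at 29615. Their part in the result was not tested.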

How the results depend on the processing

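Fhl5 (4.73 to 5.34), Creb3l4 (4.31 to 5.02) and Crem (1.22 to 1.96) were called higher under all 21 alternatives, and 3 to 4 members were called higher. The count of members called lower, 1, became 4 when libraries were scaled to equal total reads, 3 after quantile normalization, and 0 with the GC correction or without spermatocyte replicates 3 and 4. Leaving out 1 library gave 0 to 3. Atf1 changed sign with equal total reads (-0.0072, limma adjusted p = 0.97). These scalings also moved the median of all models. Over all models, 8563 were called lower, against 14333 with no filter, 5470 with a filter of 50, 3454 with the GC correction, and 3788 over the same models without it, an alternative chosen after seeing the data. These 4 tested other numbers of models.

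The differences of log2 ratios kept their direction, but with fewer libraries the smallest possible adjusted p lies above 0.05. Leaving out 1 library gave 1.81 to 2.07 for Crem to Creb1, 1.14 to 1.49 for Crem to Atf1, 4.15 to 4.63 for Fhl5 to Fhl4 and 5.45 to 5.82 for Creb3l4 to Creb3. Without spermatocyte replicates 3 and 4 they were 1.64, 0.91, 4.69 and 5.22. No paired analysis was possible because the labels give no replicate numbers shared between the cell types.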

Other observations

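Genes known to respond early to cAMP signalling were read as a further list. Of 11 tested genes 5 rose in spermatids and 1 fell, against 32.5% called higher and 29.8% called lower among all tested models, and the median log2 fold change was 0.92. With the GC correction 8 rose (median 1.31), and 6737 of all 17944 models tested there were called higher, with a median of 0.38. Without spermatocyte replicate 3, 7 rose. With equal total reads 4 rose (median 0.48, against -0.44 for all models). With quantile normalization also 4 rose (median 0.45, against -0.36 for all models). The orphan nuclear receptor genes Nr4a1, Nr4a2 and Nr4a3 rose together. Nr4a1 had 6198, 6084, 8107 and 7989.9 normalized counts in spermatids and 327, 258, 256 and 277 in spermatocytes, a ratio of 25.4 (log2 fold change 4.65 ± 0.18 SE, limma adjusted p = 1.2e-09). Nr4a3 had 281 to 353 in spermatids and 6.85 to 21.0 in spermatocytes, and Nr4a2 had 110 to 163 in spermatids and 6.85 to 29.1 in spermatocytes. Nr4a1 was called under all 21 alternatives. The Crem gene also encodes ICER, a repressor of such genes, which the table does not separate. Pde4d, a phosphodiesterase that degrades cAMP, fell to 45.1 ± 11.5 in spermatids, against 249 ± 95.0 in spermatocytes (SD, n = 4 each, with a log2 fold change of -2.39 ± 0.36 SE and a limma adjusted p = 6.3e-05).

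The summed macrophage and blood cell markers were 4197, 2020, 1800.0 and 3053 normalized counts in spermatid libraries 1 to 4 and 124 to 142 in spermatocyte libraries, and their part in these differences was not tested. Pde4d was highest in spermatocyte library 3, at 350.0, where the Sertoli cell markers were highest.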
